A study of Mus musculus with 12 samples.

Results

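Back skin of mouse embryos without type I keratins was compared with back skin of their wild type. The arrays were chosen by their titles: 3 were titled as the type I keratin knockout and 3 as the wild type of that series, so 6 of the 12 arrays of the study. All embryos were C57BL/6 and were taken at stage E18.5, and the label of the knockout gives no more than the absence of the type I keratins. As background, the line lacks the cluster of type I keratin genes on chromosome 11. The other 6 arrays, 3 of the type II keratin knockout and 3 of its own wild type, entered the same model and share in its estimate of each gene's spread. Otherwise they serve below to show where the type I knockout differed from the type II knockout. Total RNA of whole back skin was hybridised to Illumina bead arrays, so each value is a mean over epidermis, hair follicles, dermis, fat and muscle, and fewer cells of a type cannot be told apart from less RNA per cell. All probes detected on at least 3 of the 6 arrays were described, which kept 13705 of 25697 probes and 10507 genes (9713 named genes and 794 probes without a gene name, each counted as a gene).

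Keratins form the intermediate filaments of epithelial cells. A filament needs a type I and a type II partner, as in the pair of Krt14 and Krt5 in the basal layer of the epidermis and the pair of Krt10 and Krt1 above it, and a keratin without a partner is degraded. Filaments anchor at desmosomes between cells and at hemidesmosomes toward the basement membrane, and the outermost keratinocytes end as flattened sacs of crosslinked protein, the cornified envelope, sealed by lipids. The title of the series names Nrf2, a factor that answers oxidative stress, the activity of mitochondria, the makeup of the barrier, and TSLP, a cytokine of allergy.

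Each of the 6 arrays detected 13272 to 13612 probes. Log2 signals correlated across genes at 0.975 to 0.987 among the wild-type arrays, at 0.983 to 0.991 among the knockout arrays and at 0.912 to 0.938 between the groups. The titles open with a number whose meaning the labels do not give, one shared by arrays 1 and 2 of both genotypes and another by array 3 of both. By sex-linked transcripts the wild type held 2 males and 1 female and the knockout 3 males. Whether each array stands for its own embryo is not stated in the labels, so p-values reflect only how far these samples spread, part of which may be technical. Values are log2 normalised signals per array, given in the order of arrays 1, 2 and 3. Changes are log2 differences, knockout minus wild type, with their standard error, n = 3 arrays in each group. Adjusted p-values come from limma with Benjamini-Hochberg adjustment over all 10507 genes, a bare value in parentheses beside a change is its adjusted p, and the words rose, fell and called are kept for genes where that value was under 0.05.

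Without type I keratins, many genes of the epidermal barrier and of epithelial stress went from near the background of the array to strong signals, while the falls outside the deleted cluster were small. Of 10507 genes, 1351 rose (12.9%) and 1776 fell (16.9%), together 3127 (29.8%). Every count of rises and falls in a gene list below is to be read beside these shares. The rises were the larger changes. By fitted change, a rise of at least 2-fold was called for 646 genes (6.15%), of at least 4-fold for 181, of at least 8-fold for 69 and of at least 32-fold for 23. Among genes outside the deleted cluster, 183 fell at least 2-fold, 10 at least 4-fold and 1 at least 8-fold, and at least 16-fold was reached by 0. With genes detected in 1 group only set at their bounds, 617 rose at least 2-fold, 176 at least 4-fold, 67 at least 8-fold and 22 at least 32-fold, and 177 outside the cluster fell at least 2-fold. The median change of all genes was -0.12, that of the genes called higher 0.95 and that of the genes called lower -0.64. In 5059 genes (48.1%) all 3 knockout arrays lay on one side of all 3 wild-type arrays. The changes within the pair of title numbers had the same sign for 3126 of the 3127 called genes. These genes were called from the same arrays, so that count is no separate test. Over all 10507 genes the changes within the title numbers correlated at 0.85 (Pearson), the second number holding array 3 of each group alone. Calls came from every level of signal: among the 2627 genes with the lowest signals 256 rose and 323 fell, and among the 2627 with the highest 378 rose and 496 fell. The number of falls depended on single arrays: it was 1055 without knockout array 1 and 1118 without knockout array 2.

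**Figure D1:**
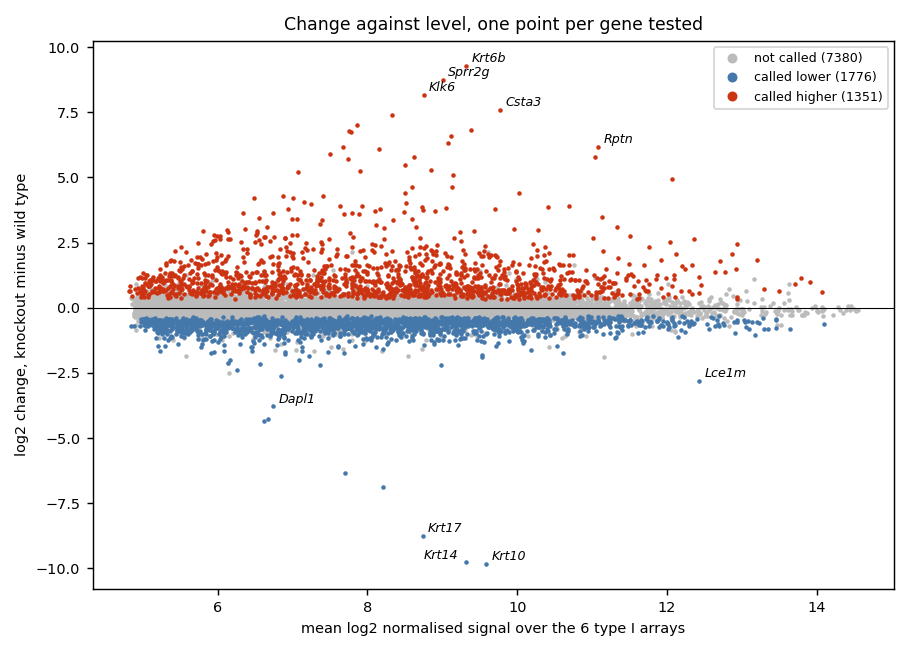
Log2 change (knockout minus wild type, vertical axis) against the mean log2 normalised signal over the 6 arrays (horizontal axis), 1 point per gene tested, with called genes coloured by direction. The 1351 rises reach far higher than the falls reach low, except for the keratins of the deleted cluster, 3 of which are labelled at the bottom.

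The deleted cluster itself was checked before any other gene. Krt14, the type I keratin of basal cells, gave 14.14, 14.28 and 14.16 on the wild-type arrays and 4.38, 4.49 and 4.42 on the knockout arrays. Krt10, that of the suprabasal layers, gave 14.47, 14.50 and 14.50 and then 5.12, 4.51 and 4.38, and knockout array 1 still counted it as detected. Krt17, a keratin of hair follicles, periderm and stressed epidermis, gave 13.05, 13.27 and 13.02 and 4.40, 4.36 and 4.32. All 6 arrays therefore carried the labelled genotype. The loss was at least 583-fold for Krt14 and at least 276-fold for Krt17. Krt15, of the basal layer and the hair follicle bulge, gave 11.71, 11.79 and 11.40 and 4.84, 4.72 and 4.75, a fall of at least 98.8-fold. Krt23 fell from 10.82, 11.35 and 10.45 to 4.57, 4.41 and 4.61, which is at least 58.3-fold. Krt27, of the inner root sheath of the hair follicle, was lower by at least 13.9-fold, and Krt16, the stress keratin that pairs with Krt6, by at least 13.8-fold. Each bound sets the mean of the brighter group against the lowest signal that still counted as detected, because no array of the dimmer group detected the probe. Krt10 fell by 9.82 ± 0.46 (adjusted p = 4.95e-08). Krt12 was at least 2.08-fold lower and Krt35, of the hair shaft, at least 1.9-fold, both from low wild-type signals. Krt34 (at least 1.17-fold lower, adjusted p = 0.26) and Krt33a (-0.22 ± 0.32, adjusted p = 0.631) were hair keratins with low wild-type signals and no call, although no knockout array detected Krt34 and all wild-type arrays did. The call of Krt12 was lost without wild-type array 2 (adjusted p = 0.0788) or knockout arrays 1 (0.0522), 2 (0.0502) or 3 (0.0505), and those of Krt12 and Krt35 were lost without background correction (0.121 and 0.116).

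Genes on both sides of the cluster on chromosome 11 were still measured. Of the 15 tested genes that precede it in the RefSeq order, 4 rose (Mien1, Grb7, Gsdma and Tns4) and 3 fell (Ormdl3, Msl1 and Casc3), and of the 15 that follow it 3 rose (Jup, Nkiras2 and Stat5b) and 0 fell, against 12.9% rises and 16.9% falls over all genes. Leaving out single arrays cost Gsdma its call (wild-type array 2 or 3 or any knockout array, adjusted p up to 0.0724), and likewise Msl1 (wild-type array 1 or 2 or any knockout array), Ormdl3 (wild-type array 2 or any knockout array) and Casc3 (wild-type or knockout array 1 or 2). Jup encodes plakoglobin, a protein of desmosomes and adherens junctions, and went from 6.35, 6.00 and 5.84 to 7.41, 7.68 and 8.77, a change of 1.89 ± 0.31 (adjusted p = 0.00108).

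Among the type II keratins, Krt6b and Krt6a went from near background to strong signals. Of 13 type II keratins that entered, 6 rose and 0 fell, and 2 of the 13 were detected in only 1 of the groups, so their direction follows from the filter. Krt6b, a keratin of wounded and stressed epidermis, gave 4.98, 4.47 and 4.57 in wild type and 13.81, 14.03 and 14.03 in the knockout (9.29 ± 0.17, adjusted p = 3.55e-12), and 1 of the 3 wild-type arrays detected it. Its close relative Krt6a went from 4.40, 4.41 and 4.43 to 11.27, 11.49 and 10.71 and was at least 72.0-fold higher. Sequence is shared between these genes, and how far each probe also reads the other was not checked. Krt7, a keratin of simple epithelia, went from 5.97, 5.83 and 6.08 to 6.90, 7.80 and 8.22 (1.68 ± 0.27, adjusted p = 0.000978). Krt5, whose basal partner Krt14 was lost, rose by 0.94 ± 0.23 (adjusted p = 0.0111), from 10.75, 10.57 and 10.73 to 11.54, 11.45 and 11.89, and that call was lost without array 3 of both groups (0.0822), an alternative added after the data were seen. Krt80 rose by 0.54, a call lost without wild-type array 2 (0.0561) or knockout array 2 (0.0664), and Krt84, not detected in wild type, was at least 1.19-fold higher. Krt1, the suprabasal partner of Krt10, was at 11.28, 10.85 and 10.70 in wild type and 11.36, 10.74 and 9.002 in the knockout, where array 3 lay apart from the other arrays and the groups overlapped. The transcripts of Krt5 and Krt1 were thus present in skin that had lost those of Krt14 and Krt10.

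**Figure D2:**
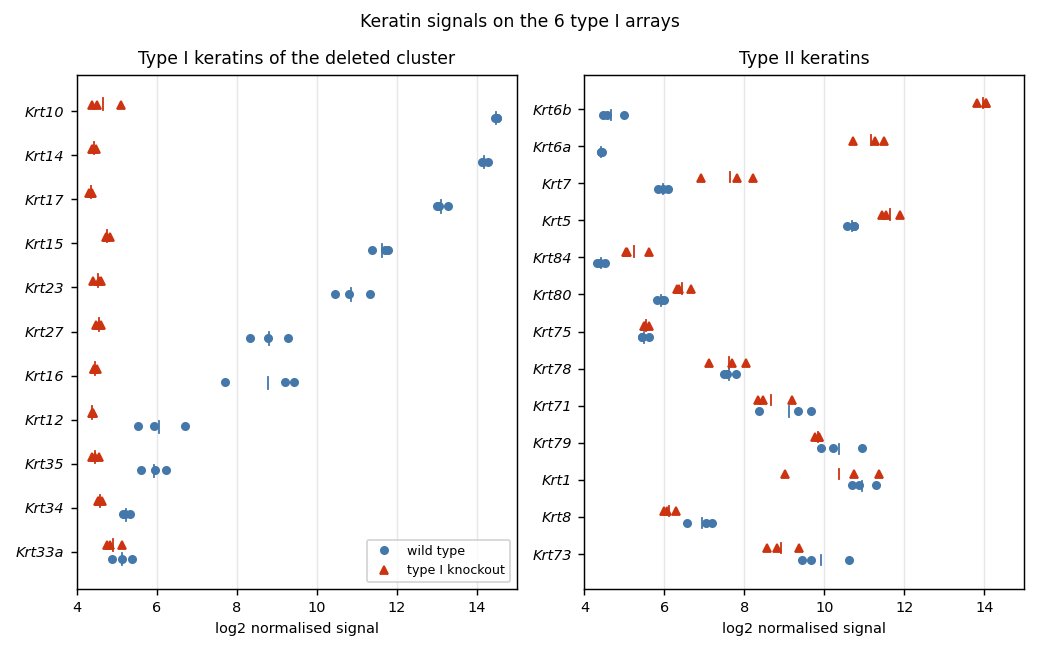
Log2 normalised signal (horizontal axis) of the 11 type I keratins of the deleted cluster that entered and of the 13 type II keratins that entered, 1 circle per wild-type array and 1 triangle per knockout array, with a short line at each group's mean. On the left the knockout arrays sit near the background at about the same low signal for every gene, and on the right Krt6b and Krt6a stand apart from the other type II keratins.

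Among other intermediate filament genes and proteins that link keratin filaments to other structures, falls outnumbered rises. Of 13 that entered 3 rose (23.1%) and 5 fell (38.5%), against 12.9% and 16.9% over all genes, with a median change of -0.40. The 5 falls became 1 without array 3 of both groups and 8 with array weights. Periplakin, Ppl, which joins filaments to the cornified envelope, rose by 1.32 ± 0.23 (adjusted p = 0.00169) and epiplakin, Eppk1, by 1.22 ± 0.24 (0.00371). Dst, dystonin, whose epithelial form ties keratin to hemidesmosomes, fell by 0.83 ± 0.15 (adjusted p = 0.00161). Of its 2 entered probes, which changed by -0.83 and -0.45, 1 was called.

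The small proline-rich proteins, which are crosslinked into the cornified envelope and are known for rising in wounded or barrier-impaired epidermis, had the highest median change of any list. All 13 members that entered rose, with a median change of 5.21 against -0.12 for all genes, and 9 of the 13 were not detected on any wild-type array, so that they entered through the knockout alone. With those 9 set at their bounds the median was 5.08. Sprr2g went from 4.76, 4.40 and 4.74 to 13.25, 13.37 and 13.50 and was at least 334-fold higher. Sprr2e (4.54, 4.48 and 4.86 in wild type, 11.61, 11.91 and 12.56 in the knockout) was at least 131-fold higher, Sprr2f at least 83.6-fold, Sprr2k at least 71.0-fold and Sprr2i at least 54.4-fold. The genes of the other subfamilies that were already measurable in wild type rose as well. Sprr1b went from 7.42, 8.12 and 8.89 to 14.01, 13.92 and 13.88 (5.79 ± 0.51, adjusted p = 1.05e-05) and Sprr1a from 7.01, 6.24 and 6.57 to 11.69, 11.93 and 11.43 (5.08 ± 0.24, 6.01e-08). Sprr3 was not detected in wild type and was at least 1.43-fold higher (adjusted p = 0.000781). The Sprr2 genes are close copies of each other on chromosome 3, and how far each probe reads only its own gene was not checked.

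The promoters of the Sprr2 genes show what these genes share besides their coding sequence. RefSeq's table for GRCm38.p6 had an entry for 7 of the 9 Sprr2 genes tested, and the 250 bases before the start are printed for 4 of them, 5′ to 3′ on the plus strand, because they include the largest rises with an entry (Sprr2e, Sprr2f and Sprr2k) and one of the smaller (Sprr2b). Capitals mark TGAGTCA or TGACTCA, the palindromic element known to bind AP-1, the Jun and Fos family of factors, then ATTTGCAT, the octamer element known to bind POU factors, and TATAAA.
Sprr2e, chr3:92351893-92352142: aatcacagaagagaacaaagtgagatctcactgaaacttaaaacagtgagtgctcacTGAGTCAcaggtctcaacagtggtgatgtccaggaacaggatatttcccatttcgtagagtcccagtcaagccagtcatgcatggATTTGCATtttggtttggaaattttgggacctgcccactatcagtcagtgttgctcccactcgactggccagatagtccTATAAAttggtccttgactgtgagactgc
Sprr2f, chr3:92364937-92365186: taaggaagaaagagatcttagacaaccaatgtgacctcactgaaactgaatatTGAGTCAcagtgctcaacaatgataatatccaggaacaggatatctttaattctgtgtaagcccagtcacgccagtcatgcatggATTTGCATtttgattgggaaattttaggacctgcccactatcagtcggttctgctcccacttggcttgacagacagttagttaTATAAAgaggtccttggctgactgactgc
Sprr2k, chr3:92432332-92432581: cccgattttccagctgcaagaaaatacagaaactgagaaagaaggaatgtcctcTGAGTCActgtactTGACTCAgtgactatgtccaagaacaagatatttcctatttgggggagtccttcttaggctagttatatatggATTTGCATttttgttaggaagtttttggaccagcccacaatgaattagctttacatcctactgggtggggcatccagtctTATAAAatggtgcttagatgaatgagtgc
Sprr2b, chr3:92316455-92316704: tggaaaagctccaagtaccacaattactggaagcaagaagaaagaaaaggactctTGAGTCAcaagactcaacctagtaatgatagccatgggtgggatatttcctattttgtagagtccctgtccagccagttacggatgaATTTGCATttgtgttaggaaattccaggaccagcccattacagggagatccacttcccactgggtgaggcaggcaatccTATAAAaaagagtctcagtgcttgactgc
In 6 of the 7 promoters all 3 elements lay in the same order. TGAGTCA began between position -197 and position -193 from the start, ATTTGCAT between -112 and -108, and TATAAA at -29, and Sprr2k had a further TGACTCA at -182. Sprr2a1, which had the smallest rise of the Sprr2 genes (2.05), had none of the 3 in the 250 bases before its listed start. Over the promoters of all tested genes with an entry (7838, 1 start per gene, both strands, 250 bases), TGAGTCA or TGACTCA stood in 3.34%, TATAAA in 7.31% and ATTTGCAT in 1.47%. Among the 42 genes with an entry that rose at least 8-fold, the shares were 21.4% (9 genes), 33.3% (14) and 14.3% (6). The Sprr2 genes are 6 of those 42 and each holds all 3 elements, so every ATTTGCAT among the 42 lies in a Sprr2 gene. Among the 450 that rose at least 2-fold, TGAGTCA or TGACTCA stood in 6.89% (31 genes, 6 of them Sprr2 genes), and among the 139 that fell at least 2-fold, in 2.16%. The core of the antioxidant response element bound by Nrf2, TGACNNNGC, stood in 12.7% of the promoters that rose at least 2-fold, in 10.1% of those that fell and in 11.7% of all. The sequence TGACTCAGC matches both this core and the AP-1 element and stood in 27 promoters. The octamer was added to the search after these promoters had been read. A match describes letters in the window and is not a measured binding site.

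The late cornified envelope genes split by subfamily. Of 14 that entered, 4 rose and 1 fell. The Lce3 genes, known for expression in damaged epidermis, rose: Lce3a went from 4.83, 4.80 and 5.09 to 8.99, 9.17 and 9.15, Lce3c changed by 3.89 ± 0.40 (adjusted p = 3.34e-05) and Lce3b by 3.86 ± 0.41 (4.63e-05). The 3 Lce3b probes changed by 2.62 to 7.19. Lce1m fell from 14.09, 13.75 and 13.63 to 11.62, 10.45 and 11.03, a change of -2.79 ± 0.41 (adjusted p = 0.000497), and lay on all knockout arrays below all wild-type arrays. The other Lce1 genes lay between -0.46 (Lce1l) and 0.53 (Lce1f), and of these Lce1e was called (0.48), a call lost without wild-type array 2 (0.162) or 3 (0.069) or knockout array 1 (0.134), 2 (0.0666) or 3 (0.0889).

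Most scaffold proteins of the cornified envelope rose, whereas loricrin was not called. Of 15 scaffold and crosslinking genes, 9 rose and 1 fell, with a median change of 1.13. Repetin, Rptn, rose most in this list, from 7.75, 7.87 and 8.34 to 14.24, 14.28 and 13.98 (6.18 ± 0.67, adjusted p = 5.03e-05). Cornifelin, Cnfn, went from 7.07, 6.82 and 6.74 to 10.40, 10.38 and 11.04 (3.73 ± 0.25, 1.12e-06) and involucrin, Ivl, an early scaffold of the envelope, from 10.03, 9.61 and 9.34 to 12.37, 12.45 and 12.22 (2.69 ± 0.51, 0.00286). The transglutaminase Tgm1, which crosslinks these proteins, changed by 1.94 ± 0.23 (adjusted p = 0.000111), and dermokine, Dmkn, by 0.99 ± 0.21 (0.00451). Loricrin, Lor, the main scaffold protein of the envelope in mouse, stood at 14.43, 14.47 and 14.45 in wild type and 14.47, 14.14 and 14.10 in the knockout (-0.21 ± 0.65, adjusted p = 0.835). Its standard error came from all 12 arrays and is wide beside the values of these 6. The signals lie near the highest mean of any gene over the 6 arrays (14.55), and whether the top of the scale hid a change was not tested. Hornerin, Hrnr, changed by -0.35 ± 0.67 (adjusted p = 0.726) and filaggrin 2, Flg2, fell by 1.83 ± 0.53 (0.0236), a call lost without wild-type array 1 (0.0853) or knockout array 2 (0.0711) or 3 (0.0839).

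Most proteases of the epidermis rose, and so did most of the protease inhibitors listed. Of 20 kallikreins and other epidermal proteases 18 rose and 0 fell, with a median change of 1.95, and of 18 protease inhibitors 14 rose and 1 fell, with a median of 1.74. In these lists 3 proteases and 2 inhibitors were detected in only 1 of the groups, so their direction follows from the filter. With them set at their bounds the medians were 1.94 and 1.74. Kallikreins cut the desmosomes of the outermost cells during shedding. Klk6 went from 4.92, 4.56 and 4.51 to 12.85, 12.74 and 12.92 and was at least 230-fold higher. Klk10 rose by 5.28 ± 0.31 (adjusted p = 3.39e-07), Klk13 by 4.63 ± 0.28 (5.08e-07) and the membrane protease Prss27 by 3.78 ± 0.28 (3.24e-06). The 3 Prss27 probes changed by 1.33 to 3.92. The stratum corneum kallikreins Klk5 (1.90) and Klk7 (2.43) rose as well. Among the inhibitors the stefin relative Csta3 went from 6.16, 5.86 and 5.91 to 13.30, 13.63 and 13.75 (7.58 ± 0.32, adjusted p = 1.66e-08). Csta2 rose by 5.71 ± 0.51 (1.26e-05), and Slpi, which blocks neutrophil elastase, was at least 44.4-fold higher. The serpin Serpinb11 went from 5.94, 5.50 and 5.85 to 11.22, 11.11 and 11.35. Wfdc21 was the member that fell, from 8.76, 7.88 and 7.83 to 5.09, 5.53 and 5.98 (-2.62 ± 0.35, 0.00027). The Csta, Stfa and Serpinb3 genes are families of near copies, so their probes may read more than 1 gene.

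**Figure D3:**
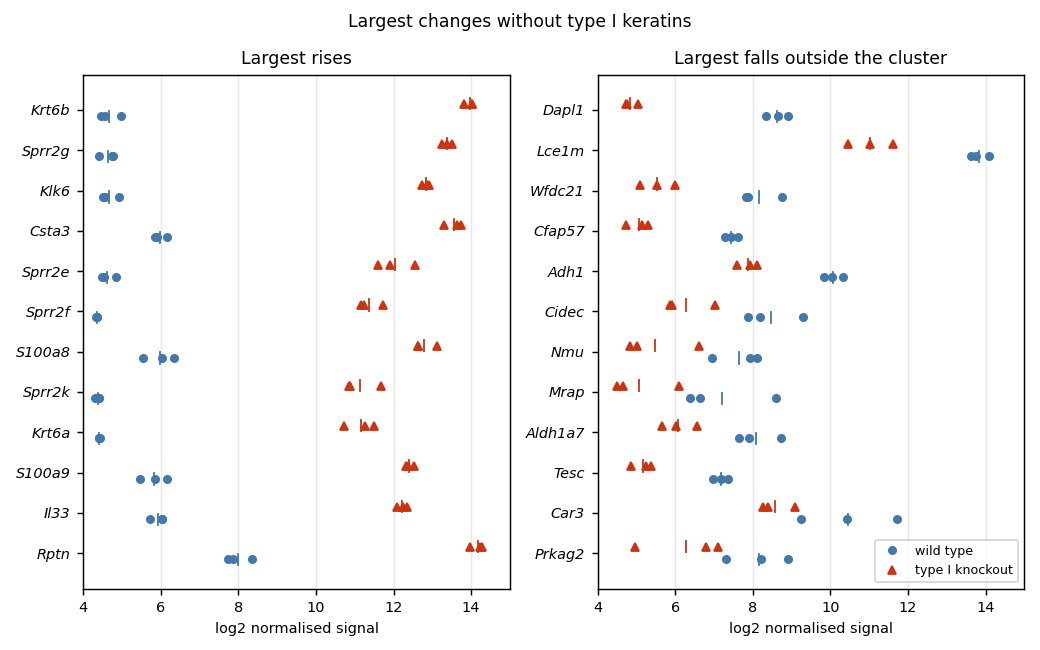
Log2 normalised signal (horizontal axis) of called genes whose groups do not overlap, the 12 that rose most on the left and the 12 that fell most on the right, without the deleted cluster, 1 circle per wild-type array and 1 triangle per knockout array, with a short line at each group's mean. On the left 6 of the 12 genes were not detected on any wild-type array, and on the right the groups lie closer together than on the left.

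Lipid enzymes of the barrier rose, with the ceramide and cholesterol branches ahead of general fatty acid synthesis. Of 19 genes of ceramide synthesis and lamellar granules 11 rose and 1 fell (median 0.82), of 18 of cholesterol synthesis and uptake 12 rose and 0 fell (1.26), and of 22 of fatty acid synthesis and activation 6 rose and 2 fell (0.14, the falls became 1 without wild-type array 1 or 2 or knockout array 1, 2 or 3). Degs2, which makes the hydroxylated ceramides, went from 5.48, 4.88 and 5.45 to 9.55, 9.36 and 9.72 (4.27 ± 0.23, adjusted p = 1.63e-07). Abca12, the lipid transporter of lamellar granules, rose by 2.11 ± 0.22 (3.45e-05), Cyp4f39, which hydroxylates very long fatty acids for acylceramides, by 2.31 ± 0.27 (7.99e-05) and Sptlc3, a subunit of the enzyme that starts ceramide synthesis, by 1.80 ± 0.27 (0.000531). In the cholesterol list Msmo1 changed by 2.34 ± 0.16 (adjusted p = 1.47e-06), Cyp51 by 2.20 ± 0.19 (1.12e-05), squalene epoxidase, Sqle, by 2.03 ± 0.18 (1.05e-05) and lanosterol synthase, Lss, by 1.94 ± 0.18 (1.3e-05). Fabp5, the epidermal fatty acid binding protein, went from 9.31, 9.43 and 9.47 to 12.95, 12.97 and 12.68 (3.46 ± 0.20, 2.57e-07), and the desaturase Scd2 rose by 1.34 ± 0.23 (0.00129). Its relative Scd1, which fat also expresses, fell by 1.73 ± 0.57 (adjusted p = 0.0386) from 11.39, 12.78 and 10.28, a wild type whose own arrays spread widely, and the call was lost when wild-type array 1 (0.0728) or 2 (0.143) or knockout array 1 (0.0778), 2 (0.074) or 3 (0.109) was left out.

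Enzymes of lipid mediators and retinoids went both ways. Of 14 lipoxygenase and prostanoid genes 5 rose (35.7%) and 3 fell (21.4%), and of 15 retinoid genes 5 rose (33.3%) and 3 fell (20%). Over all genes 12.9% rose and 16.9% fell. Sdr9c7, which acts on the lipids that bind the envelope, rose by 3.07 ± 0.41 (adjusted p = 0.00028), Hpgd, which inactivates prostaglandins, by 2.66 ± 0.37 (0.000369), and Ptges, which makes prostaglandin E, by 2.37 ± 0.26 (6.54e-05). The 5 rises of the first list went to 3 when any single array was left out, and its falls became 1 without wild-type array 1 or knockout array 2. Crabp2, a retinoic acid binding protein of the upper epidermis, went from 5.95, 6.01 and 5.98 to 9.45, 9.63 and 9.75 (3.63 ± 0.16, adjusted p = 3.45e-08), and Aldh1a3, which makes retinoic acid, rose by 3.78 ± 0.51 (0.00029). Adh1, an alcohol dehydrogenase that also oxidises retinol, fell from 10.33, 9.84 and 10.05 to 8.12, 7.59 and 7.93 (-2.20 ± 0.28, 0.000196).

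Desmosomal genes rose nearly throughout, and those of the basement membrane did not. Of 10 desmosome genes that entered 8 rose and 0 fell, with a median change of 1.77, and 1 of the 10 was detected in only 1 of the groups. Dsc1 and Dsg1b, cadherins of the upper layers, went from 7.14, 6.82 and 7.19 to 10.78, 10.64 and 10.82 and from 5.91, 5.61 and 5.61 to 9.06, 8.97 and 9.23 (3.69 ± 0.79, adjusted p = 0.00506, and 3.37 ± 0.32, 1.67e-05). The 3 Dsg1b probes changed by 1.21 to 3.37. Dsg3, the cadherin of the lower layers, was at least 5.34-fold higher, and Perp, which stabilises desmosomes, rose by 1.95 ± 0.19 (2.35e-05). Dsg2 (-0.01 ± 0.13, adjusted p = 0.944) and Pkp2 (-0.04 ± 0.27, 0.917) were the 2 members not called. Of 16 tight and adherens junction genes 7 rose and 0 fell. Cldn4 changed by 2.63 ± 0.35 (adjusted p = 0.000236) and Cldn1, a claudin the skin barrier needs, by 1.98 ± 0.23 (7.82e-05). The gap junction gene Gjb2 went from 11.50, 11.02 and 10.61 to 13.75, 13.60 and 13.67 (2.63 ± 0.22, 7.02e-06). Of 17 genes of hemidesmosome and basement membrane 0 rose and 5 fell (29.4%, against 16.9% over all genes). These were Col7a1, the anchoring fibril collagen (-0.88 ± 0.17, adjusted p = 0.00344), Hspg2 (-0.76), Fermt2 (-0.69), Col4a1 (-0.65) and Col4a2 (-0.60). The hemidesmosomal integrins Itga6 (0.49 ± 0.26, adjusted p = 0.171) and Itgb4 (0.31 ± 0.17, 0.187) were not called. Among 27 actin genes 7 rose (25.9%, against 12.9% over all genes) and 3 fell (11.1%), with Myo5b (2.18 ± 0.24), ezrin, Ezr (1.55 ± 0.15), and Pls3 (1.37 ± 0.15) ahead. The actin falls became 1 without wild-type array 3 or knockout array 1, 2 or 3.

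Alarm cytokines were among the strongest responses. Of 10 alarmins and members of the interleukin 1 family 9 rose and 0 fell, with a median of 1.61, and 1 of the 10 was detected in only 1 of the groups. Il33, an alarmin of the interleukin 1 family released from damaged epithelium, went from 6.03, 5.72 and 6.03 to 12.10, 12.24 and 12.35 (6.30 ± 0.19, adjusted p = 6.12e-10). Tslp, the epithelial cytokine named in the series title, which drives allergic inflammation, went from 5.77, 5.48 and 5.93 to 11.15, 11.80 and 11.62 (5.80 ± 0.28, 6.01e-08). All knockout arrays of both genes lay far above all wild-type arrays. Il1f6 (1.98 ± 0.39, adjusted p = 0.00328) and Il1f5 (1.97 ± 0.29, 0.000525), the agonist and the antagonist of the interleukin 36 receptor, rose as well. Il1b was not detected in wild type and was at least 2.09-fold higher. Chemokines moved less: of 13 that entered 3 rose (23.1%) and 2 fell (15.4%), against 12.9% and 16.9% over all genes. Among them were Cxcl16 at 2.49 ± 0.25 (adjusted p = 2.65e-05) and Ccl27a, which draws T cells to skin, at -0.90 ± 0.19 (0.00442). The chemokine rises became 1 without wild-type array 1, 2 or 3 or knockout array 3, and the falls 1 without wild-type array 1 or 2 or knockout array 1. Of 20 interferon-induced genes 1 rose and 0 fell, and the rises became 0 without wild-type array 2 or 3 or knockout array 1, 2 or 3.

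Most antimicrobial genes rose, and the S100 family was split. Of 13 antimicrobial genes 9 rose and 1 fell, and 5 of the 13 were detected in only 1 of the groups, so their direction follows from the filter. The median change was 1.70, and 1.56 with those 5 set at their bounds. Of 12 S100 genes 6 rose (50%) and 2 fell (16.7%, against 16.9% over all genes). The falls were S100a3 (-1.66 ± 0.47, adjusted p = 0.0206) and S100a13 (-0.86 ± 0.21, 0.00939), and they became 1 without wild-type array 1 or 3 or knockout array 1 or 3. The calprotectin subunits S100a8 and S100a9, which keratinocytes make under stress and neutrophils hold in store, went from 6.03, 6.35 and 5.54 to 12.63, 13.12 and 12.63 and from 5.84, 6.15 and 5.46 to 12.38, 12.52 and 12.33 (6.82 ± 0.27, adjusted p = 1.01e-08, and 6.59 ± 0.21, 8.1e-10). The neutrophil markers Elane, Mpo and Ngp were not detected on any of the 6 arrays. Camp, another marker of neutrophils, fell by 1.45 ± 0.29 (0.00391), while Cxcr2 was at least 1.6-fold higher. The defensin Defb14 went from 5.36, 5.42 and 5.06 to 9.85, 10.24 and 11.46 (5.24 ± 0.46, 1.12e-05). Chil1, a chitinase-like protein, rose by 3.78 ± 0.38 (2.78e-05), and Pglyrp4, which binds bacterial peptidoglycan, was at least 9.76-fold higher.

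Growth factors of the epidermal growth factor receptor were led by epigen and Hbegf. Of 14 ligands, receptors and regulators 6 rose and 2 fell, and the falls became 0 without wild-type array 1 or 2 or knockout array 3 and 1 without knockout array 1 or 2. Epgn went from 6.46, 6.09 and 6.37 to 11.15, 10.11 and 10.86 (4.40 ± 0.48, adjusted p = 5.92e-05) and Hbegf from 5.80, 5.47 and 5.73 to 8.31, 8.08 and 8.96 (2.78 ± 0.27, 2.03e-05). Errfi1, an inhibitor that the receptor induces, rose by 1.11 ± 0.17 (0.000618).

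Transcription factors of stress and of differentiation rose in part. Of 12 AP-1 and immediate early factors 5 rose and 0 fell: among them Junb went from 8.01, 7.60 and 7.55 to 10.09, 9.81 and 10.54 (2.42 ± 0.25, adjusted p = 3.39e-05), Ier3 changed by 1.74 ± 0.24 (0.000312) and Egr2 by 1.28 ± 0.27 (0.0052). Jun (0.04 ± 0.17, adjusted p = 0.873), Fos (0.94 ± 0.40, 0.0942) and Atf3 (-0.01 ± 0.32, 0.987) were not called. Of 25 differentiation factors 11 rose and 2 fell, with a median of 0.40, and the falls became 0 without knockout array 1, 2 or 3 and 1 without wild-type array 2 or 3. Elf3, an epithelial factor that is induced late in differentiation, went from 5.16, 4.89 and 5.75 to 7.66, 7.96 and 8.27 (2.70 ± 0.37, 0.000344). Grhl3, needed for the fetal barrier, rose by 2.53 ± 0.22 (8.93e-06), Zfp750 by 1.80 ± 0.17 (1.79e-05) and Klf4 by 1.27 ± 0.17 (0.000253). Trp63, the factor of basal keratinocyte identity, changed by 0.21 ± 0.18 (adjusted p = 0.401). Of 16 Notch genes 1 rose (6.25%) and 5 fell (31.2%), against 12.9% and 16.9% over all genes. The count of Notch falls went to 3 without wild-type array 2, knockout array 1 or knockout array 2, and to 2 without knockout array 3.

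Targets of Nrf2 rose in part. Of 31 regulators and targets 12 rose and 1 fell, with a median of 0.13. Gpx2, a glutathione peroxidase, went from 4.79, 4.80 and 5.16 to 8.60, 8.32 and 8.74 (3.64 ± 0.27, adjusted p = 3.25e-06). Slc7a11, which imports cystine, rose by 2.95 ± 0.21 (1.92e-06), and sulfiredoxin, Srxn1, by 2.40 ± 0.28 (9.56e-05). Nqo1, a quinone reductase and textbook target, was not detected in wild type and was at least 5.61-fold higher. Other common targets did not reach the call: Gclc changed by -0.13 ± 0.14 (adjusted p = 0.54) and Txnrd1 by -0.10 ± 0.23 (0.776). Nfe2l2, the gene of Nrf2, went from 6.68, 6.86 and 6.51 to 7.61, 7.23 and 7.36 (0.72 ± 0.23, adjusted p = 0.0337). That call was lost without wild-type arrays 1 (0.0716) or 3 (0.0993) or knockout arrays 1 (0.117), 2 (0.0502) or 3 (0.0693), and with median scaling (0.0545). Of 21 glutathione transferases 4 rose (19%) and 2 fell (9.52%), against 12.9% and 16.9% over all genes, and the falls became 1 without wild-type array 3 or knockout array 1. Gsta4 went from 5.02, 5.26 and 5.08 to 8.80, 8.91 and 9.80 (4.05 ± 0.32, 4.89e-06).

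In the main fit nuclear genes of complexes I to IV of the respiratory chain fell somewhat more often than genes in general. Those of ATP synthase and of mitochondrial ribosomes fell less often. Of 32 complex I genes 1 rose and 8 fell (25% of them, median change -0.31), of 25 of complexes II to IV 0 rose and 6 fell (24%, -0.32), of 17 of ATP synthase 0 rose and 2 fell (11.8%, -0.22) and of 47 mitochondrial ribosomal proteins 0 rose and 5 fell (10.6%, -0.15), against a median of -0.12 and 16.9% falls over all genes. Sdhb, a subunit of complex II, went from 9.24, 9.96 and 9.19 to 8.61, 8.61 and 8.23 (-0.98 ± 0.19, adjusted p = 0.00294) and Cox4i1, of complex IV, from 12.82, 13.12 and 13.03 to 12.36, 12.39 and 12.38 (-0.61 ± 0.12, 0.00346). The counts of these lists moved with the processing and with single arrays. With median scaling 1 complex I gene fell, beside 1630 falls over all genes, and with array weights 19 fell, beside 2823. The main fit had 1776 falls over all genes. The complex I falls were 3 without wild-type array 2 or knockout array 1, and 5 without wild-type array 3 or knockout array 2. The 6 falls of complexes II to IV became 3 with median scaling, without wild-type array 2, and without knockout array 1 or 2. The falls of ATP synthase became 0 without wild-type array 2 or knockout array 2 or 3 and 1 without wild-type array 1 or 3 or knockout array 1, and those of mitochondrial ribosomal proteins 0 without knockout array 1, 1 without wild-type array 2 or 3, 2 without knockout array 2, 3 without knockout array 3 and 8 without wild-type array 1. The 1 rise of complex I became 0 without wild-type array 1 or 3 or knockout array 1 or 2. Muscle genes, whose fibres are rich in mitochondria, fell too and are given below, and their part in these falls was not tested. Of 42 cytosolic ribosomal proteins 1 rose and 1 fell, and the rises became 0 without wild-type array 2 or 3 or knockout array 2 or 3.

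Of 32 proteasome subunits 10 rose and 0 fell, led by Psmd11 (1.53 ± 0.14, adjusted p = 1.6e-05), and 6 rose without wild-type array 3 or knockout array 1 or 2. Glucose uptake and glycolysis had 6 rises and 1 fall among 16 genes. The glucose transporter Slc2a1 went from 11.17, 10.92 and 10.91 to 12.86, 12.78 and 12.87 (1.83 ± 0.16, 1.12e-05) and the phosphofructokinase Pfkp rose by 1.44 ± 0.18 (0.000186), while the 1 fall became 0 without wild-type array 3 or knockout array 1, 2 or 3. Among 15 genes known to be induced by hypoxia 6 rose (40%) and 2 fell (13.3%), led by Egln3, a prolyl hydroxylase of the hypoxia factor (2.33 ± 0.22, adjusted p = 1.52e-05), adrenomedullin, Adm (2.24 ± 0.32, 0.0004), and Ndrg1 (2.03 ± 0.18, 1.22e-05). The 2 falls of that list became 0 without wild-type array 3 or knockout array 3 and 1 without wild-type array 1 or knockout array 1 or 2. The heat shock proteins Hspa1a (1.62 ± 0.29, adjusted p = 0.00182) and Hspb1 (1.11 ± 0.19, 0.00157) rose among 18 chaperones, of which 3 rose and 1 fell, and the falls became 0 without wild-type array 2 or 3 or knockout array 1, 2 or 3. Of 24 genes of cell death and p53 7 rose (29.2%) and 4 fell (16.7%), against 12.9% and 16.9% over all genes. Pmaip1, which encodes the death protein Noxa, went from 5.32, 5.61 and 5.15 to 8.80, 8.89 and 8.59 (3.40 ± 0.16, 4.95e-08) and Gsdmc, a gasdermin, rose by 3.40 ± 0.40 (9.15e-05). Without wild-type array 2 or 3 or knockout array 2 the rises of that list were 3, and without knockout array 1 or 3 they were 4. Of 24 replication and mitosis genes 0 rose and 3 fell (12.5%, against 16.9% over all genes). Their falls became 0 without knockout array 1 and 1 without wild-type array 1 or 2 or knockout array 2 or 3.

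Transporters and surface proteins of the upper epidermis rose. Of 24 solute and ion transporters 15 rose and 0 fell, with a median of 1.39. The direction of 2 of the 24 follows from the filter, as they were detected in only 1 of the groups. With them at their bounds the median was 1.34. The water and glycerol channel Aqp3 went from 8.90, 8.48 and 8.99 to 11.84, 11.76 and 11.71 (2.98 ± 0.24, adjusted p = 5.81e-06). All 3 subunits of the epithelial sodium channel rose, Scnn1g by 2.30 ± 0.22, Scnn1a by 1.97 ± 0.35 and Scnn1b by 1.69 ± 0.26, and the chloride transporter Slc26a9 was at least 4.68-fold higher. Of 14 relatives of Ly6 and Plaur 6 rose and 3 fell (the falls became 1 without knockout array 1), led by Psca (3.21 ± 0.43, adjusted p = 0.000274). Of this list Ly6d, a surface marker of keratinocytes, rose by 2.19 ± 0.27 (0.000139).

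**Figure D4:**
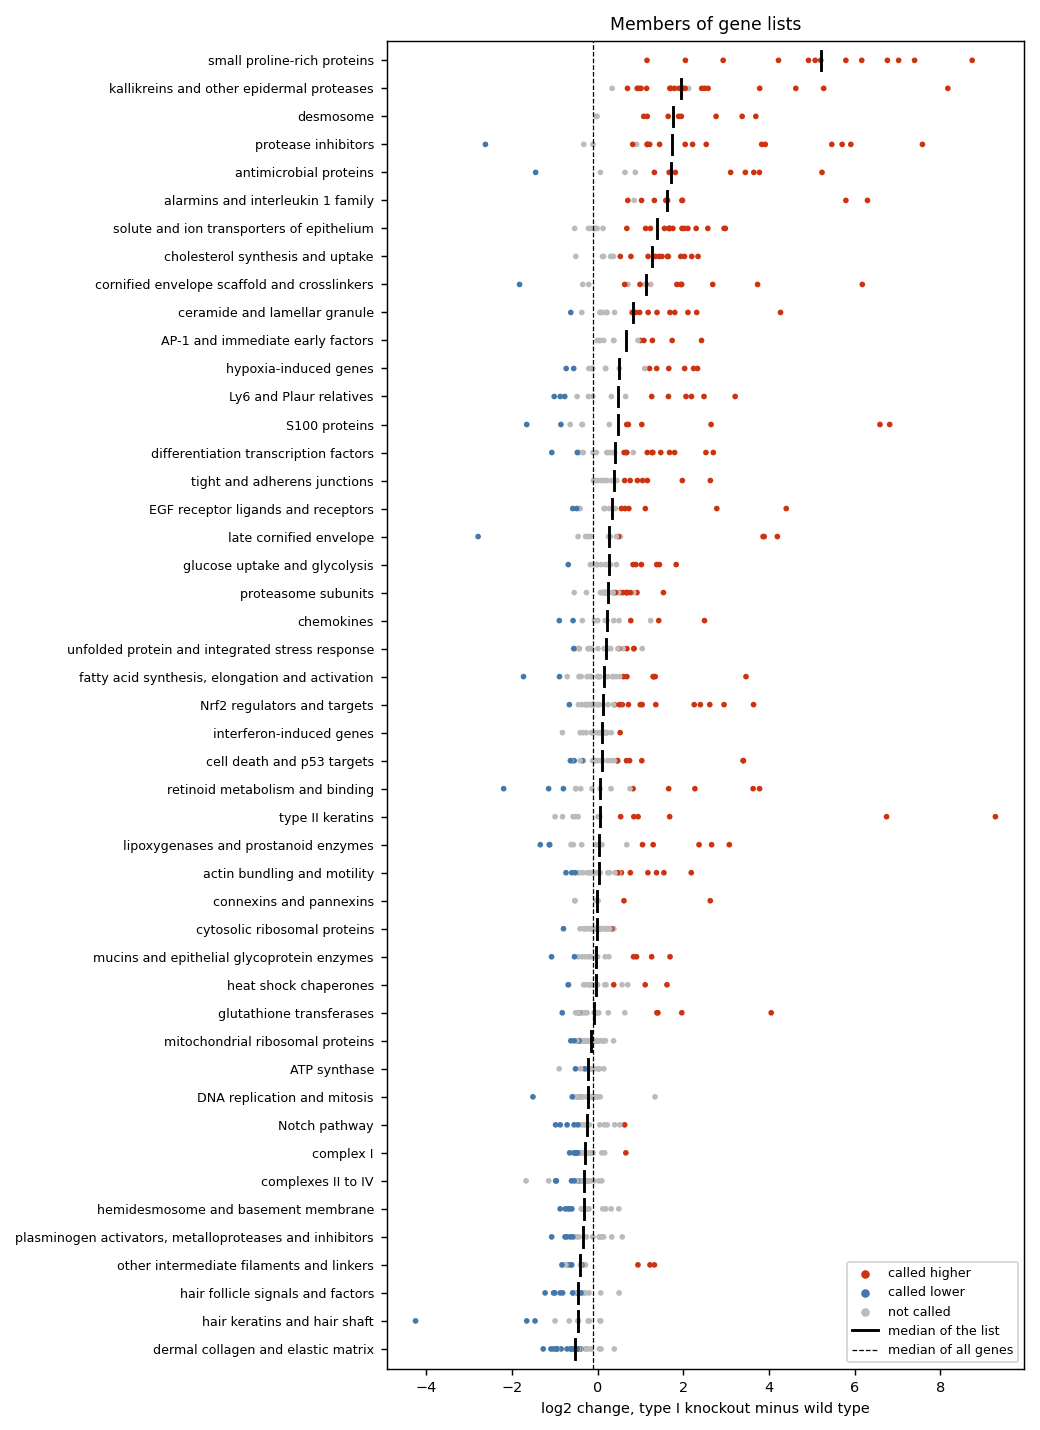
Log2 change of each member of the gene lists with at least 5 members that entered (horizontal axis), 1 row per list ordered by its median, 1 point per gene coloured by its call, with the median of the list and the median of all genes (-0.12). The small proline-rich proteins sit highest with a median of 5.21, and dermal collagen and elastic matrix sits lowest of the lists drawn with -0.54. The marker lists of cell types and the deleted cluster are not drawn.

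Falls outside the cluster were smaller and included genes known from fat, dermis, muscle and hair as well as from keratinocytes. Dapl1, known from the early differentiating layers of epithelium, fell most, from 8.90, 8.64 and 8.35 to 4.77, 5.03 and 4.73 (-3.79 ± 0.23, adjusted p = 4.35e-07). Cfap57 (-2.39 ± 0.20, 8.38e-06), Tesc (-2.01 ± 0.25, 0.000168) and Aldh1a7 (-2.01 ± 0.44, 0.00606) were further falls that did not depend on single arrays. Nmu, which encodes neuromedin U, fell by 2.18 ± 0.49 (0.00662), a call lost without array 3 of both groups (0.077), and Prkag2 by 1.86 ± 0.48 (0.0137), lost without wild-type array 2 (0.057).

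The fat genes varied among the wild-type arrays themselves. Of 5 adipocyte markers that entered 5 fell, with Cidec, Lep, Adipoq and Pparg changing by -2.19, -1.49, -1.47 and -1.07 and Plin1, not detected in the knockout, at least 1.68-fold lower, and the falls became 1 without wild-type array 2 or knockout array 1 or 2, 2 without knockout array 3 and 3 without wild-type array 1. The summed signal of the markers on the array was 2182 to 5852 in wild type and 1182 to 1639 in the knockout. Cidec, of the lipid droplet, gave 8.19, 9.30 and 7.88 in wild type and 5.93, 5.87 and 7.02 in the knockout, and Car3, abundant in fat and muscle, gave 10.42, 11.72 and 9.25 and then 9.08, 8.26 and 8.40. In both, wild-type array 2 was the highest, and by sex-linked transcripts it was the 1 female among the 6 arrays. With a term for sex in the fit the adipocyte falls were 5, and Cidec, Car3, Mrap and Adipoq kept their calls. The part of sex in the spread of the wild-type arrays was not tested beyond that fit. Cidec, Car3, Mrap and the hormone gene Adipoq lost their calls without wild-type array 2 (adjusted p = 0.102, 0.119, 0.149 and 0.146) and without knockout array 2 (0.0863, 0.093, 0.122 and 0.117). Without knockout array 1 this held for Cidec (0.0866), Mrap (0.117) and Adipoq (0.104), without wild-type array 1 for Car3 (0.0657) and Adipoq (0.0925), without knockout array 3 for Car3 (0.0848) and Adipoq (0.0549), and without wild-type array 3 for Mrap (0.0506). Lep, which encodes leptin, fell by 1.49 ± 0.30 (0.00345) and kept its call with any single array left out.

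Dermal genes fell together by small amounts. Of 30 genes of collagen and elastic matrix 0 rose and 19 fell, with a median of -0.54, and of 8 fibroblast markers 6 fell, with summed signals of 46680 to 51292 in wild type and 31334 to 37788 in the knockout. Loxl1, which crosslinks elastin, went from 11.83, 11.72 and 11.95 to 10.88, 10.88 and 10.84 (-0.97 ± 0.13, adjusted p = 0.000316), Fbn2, a fibrillin, changed by -1.03 ± 0.19 (0.00253) and the dermal factor Twist2 by -0.66 ± 0.15 (0.00799). The 19 falls became 12 without knockout array 1, 10 without knockout array 3 and 5 without array 3 of both groups. The 6 falls of fibroblast markers became 3 without wild-type array 1 or knockout array 2, and 1 without knockout array 3. Of 9 skeletal muscle markers 4 fell, with summed signals of 81302 to 95260 in wild type and 63122 to 67303 in the knockout, and 1 fell without wild-type array 3 or knockout array 1. Macrophage markers (6 entered), mast cell markers (6) and melanocyte markers (5) held 0 calls in either direction. By contrast 5 of 6 keratinocyte markers rose, with summed signals of 5177 to 6645 in wild type and 10588 to 11132 in the knockout, among them Sfn, 14-3-3 sigma (2.94 ± 0.19, 7.92e-07). The 2 Sfn probes changed by 0.96 and 2.94. The shares of epidermis, dermis and fat in the dissected skin and the changes within each were not separated, and the part of tissue shares in these falls and rises was not tested.

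Among hair follicle genes falls outnumbered rises. Of 19 signals and factors of the hair follicle 0 rose and 9 fell (47.4%, against 16.9% over all genes), with a median of -0.46. Edar, the ectodysplasin receptor that places hair buds, went from 7.26, 7.07 and 7.18 to 5.70, 5.66 and 6.47 (-1.23 ± 0.22, adjusted p = 0.00184). The follicle factor Lhx2 changed by -1.03 ± 0.14 (0.000372) and Shh, the signal that drives the follicle downward, by -1.001 ± 0.20 (0.00375). The 9 falls became 4 without wild-type array 1 or knockout array 3, and 5 without knockout array 1. Of 11 hair keratins and shaft genes 4 fell (the falls became 2 without wild-type array 1 or 3 or knockout array 1 or 3), among them Krt27 and Krt35 of the deleted cluster itself.

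Genes measured in only 1 of the groups described the edges of the comparison. Detection on 0 of 3 wild-type and 3 of 3 knockout arrays was found for 132 genes, of which 116 were called higher, and on 3 of 3 wild-type and 0 of 3 knockout arrays for 95, of which 9 belong to the deleted cluster and 54 others were called lower. These genes entered through 1 group alone, so their direction follows from the filter, also where they count as members of the lists above. Besides the keratins and Sprr genes, the former held the protease Tmprss11g (at least 16.2-fold higher), the monocarboxylate transporter Slc5a8 (at least 5.1-fold) and the kallikrein Klk9 (at least 3.97-fold), named here as members with a large bound after their values were seen.

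The knockout arrays were not equally far from the wild type for every gene. The range over the 3 knockout arrays had a median of 0.31 among the genes that rose, against 0.28 over all genes. It was over 1 for 66 of the 1351 genes that rose and for 288 of all 10507. The genes with the widest range were picked after their values were seen. Il24, a cytokine of the interleukin 10 family, gave 7.39, 5.56 and 9.40 on the knockout arrays against 4.60, 4.79 and 5.08 in wild type, so that array 3 stood highest. The defensin Defb4 gave 6.69, 8.51 and 9.30 against 4.53, 4.54 and 4.49, with array 1 lowest. Sprr2i gave 11.56, 11.49 and 9.21 against 4.78, 4.50 and 4.49, with array 3 lowest. The Il24 change of 2.63 ± 0.92 had an adjusted p of 0.0485, and its call was lost without wild-type array 1 (0.109), 2 (0.105) or 3 (0.0852) or knockout array 1 (0.101) or 3 (0.184). Among the genes that fell, 81 of 1776 had a wild-type range over 1, led by Scd1, Car3 and Mrap, which are named above. Over all 10507 genes 516 had such a range.

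Most changes of the type I knockout were shared with the type II knockout, which was measured against wild-type arrays of its own. Of the 1351 genes that rose, 919 rose in the type II knockout too, which is 68.0% of the former and 55.9% of the 1645 that rose in the latter (15.7% of all genes). Of the 1776 that fell, 1158 fell in both, 65.2% of the former and 48.8% of the 2372 of the latter (22.6% of all genes). The direction was opposite for 30 of the rises and 11 of the falls. Tested as the difference of the changes, 323 genes (3.07%) differed, 202 with the higher change in the type I knockout (1.92%) and 121 with the lower (1.15%). Tslp (5.80 and 6.27) and Il33 (6.30 and 5.55) rose in both, with adjusted p of the difference 0.592 and 0.182.

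Outside the keratins, the named genes that stood furthest above the type II knockout included several known from the late barrier. Serpinb11 rose in the type I knockout by 5.47 and changed by 0.65 in the other, a difference of 4.81 ± 0.50 (adjusted p = 0.000345). For Rptn the changes were 6.18 and 1.82, a difference of 4.36 ± 0.94 (0.0277). Lor changed by -0.21 here and -4.84 in the other (difference 4.63 ± 0.93, 0.0196), and Hrnr by -0.35 and -5.22 (4.87 ± 0.94, 0.0168). Hal, which makes urocanic acid in the stratum corneum, differed by 4.12 ± 0.73 (0.0105). The kallikrein Klk13 rose further without type I keratins (difference 2.50 ± 0.40, adjusted p = 0.00609). Among named genes outside the keratins, those furthest below the type II knockout were Espn, an actin bundler, with changes of -0.43 and 3.09 (difference -3.53 ± 0.59, adjusted p = 0.00778), and the chemokine gene Cxcl1 with 1.42 and 4.78 (-3.36 ± 0.70, 0.0249). Of the 3 wild-type arrays of the type I series 1 detected Cxcl1. Atf3, Adm, Slc2a3 and Lgi2 followed. Atf3, a factor of the stress response, changed by -0.01 and 3.19 (difference -3.20 ± 0.45, adjusted p = 0.00254) and the glucose transporter Slc2a3 by -0.02 and 3.16 (-3.18 ± 0.35, 0.000596). Adm and Ndrg1 rose in both and less in the type I knockout, by -3.22 ± 0.45 (0.00252) and -2.01 ± 0.26 (0.00145). Each series carries its own title numbers, so a difference between the knockouts and one between the series cannot be told apart.

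**Figure D5:**
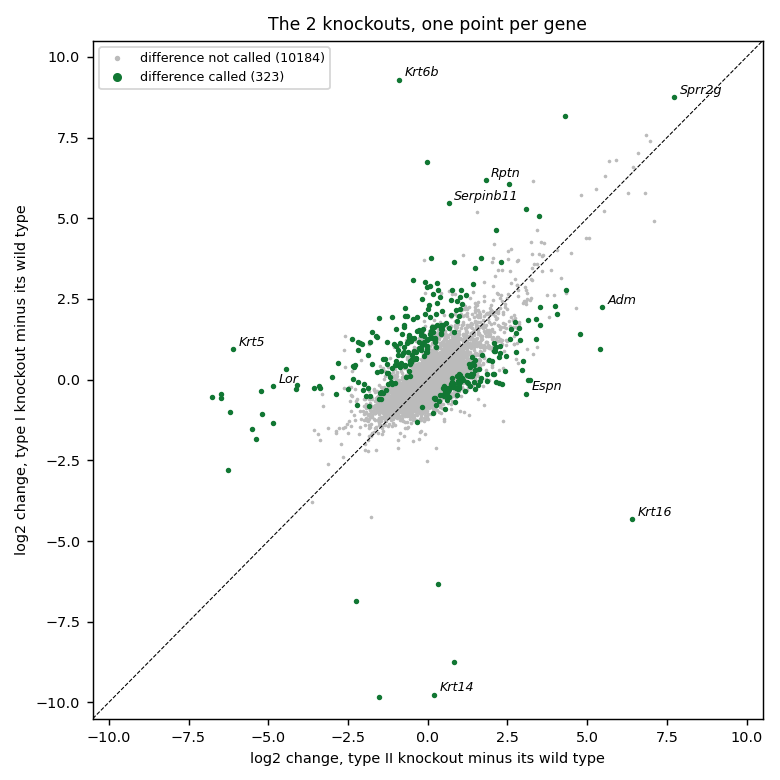
Log2 change in the type I knockout (vertical axis) against that in the type II knockout (horizontal axis), each against its own wild type, 1 point per gene, with the 323 genes whose difference was called in green and a dashed line of equal change. Krt6b and Serpinb11 lie high without a rise in the type II knockout, Adm lies to the right of the line, and the keratins of the cluster deleted in each knockout lie at the low ends.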

How the data were processed

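Trizol RNA, treated with DNase I, was turned into biotinylated cRNA, per the labels' protocols. Per the file headers, the authors deposited for each probe and array an average bead signal (an intensity that is neither normalized nor background-corrected) and a detection p-value. The scanner software was not given in the sources used here. A processed table of the authors, with intensity on a linear scale, served as an alternative.

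Signals were corrected by normexp, with controls inferred from the detection p-values and an offset of 16, quantile normalized over 12 arrays and put on a log2 scale (limma 3.58.1, R 4.3.3). Raw medians were 121.5 to 150.1 on the 6 arrays. Probes entered at a detection p under 0.05 on at least 3 of the 6 arrays. For each gene the brightest entered probe was used. Names came from the platform's annotation, where 23978 of 25697 probes had 1 symbol, 0 had several and 1719 had none. All 12 arrays entered 1 limma fit with 4 group terms, which leaves 8 residual degrees of freedom (lmFit, eBayes, Benjamini-Hochberg over 10507 genes). The difference between the knockouts was a contrast of that fit. The procedure was tested on simulated data. Alternatives changed the background correction, scaling, probe filter, probe rule, samples, blocks, sex term and array weights, used the authors' table, or left out arrays.

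The members and gene lists were chosen with earlier results of these data known. Of 1326 list names, 1167 were found on the array and 956 entered. The text names genes by a rule: keratins of the deleted cluster, the 12 largest rises and falls without overlap, up to 4 called members of each list with the largest change, the 6 largest differences between the knockouts in each direction, called genes with the highest wild-type signal, and the genes of the series title. Other list members are named where a statement about the list turns on them. Sequences are RefSeq's, assembly GRCm38.p6. Probe sequences were not used here.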

Additional observations from a re-analysis of the deposited data

Results flagged for a closer look

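The change in the type I knockout was tested against the change in the type II knockout for every gene, and the 6 largest differences in each direction outside both keratin clusters are given here, as the type I change minus the type II change on the log2 scale. Higher in the type I knockout were Hrnr (4.87 ± 0.94), Serpinb11 (4.81 ± 0.50), Gm94 (4.76 ± 0.82), Lor (4.63 ± 0.93), Rptn (4.36 ± 0.94) and Hal (4.12 ± 0.73). Of these, Serpinb11 and Rptn rose in the type I knockout, while Hrnr, Gm94, Lor and Hal were not called there and changed by -5.22, -4.44, -4.84 and -5.20 in the type II knockout. Lower in the type I knockout were Espn (-3.53 ± 0.59), Cxcl1 (-3.36 ± 0.70), Adm (-3.22 ± 0.45), Atf3 (-3.20 ± 0.45), Slc2a3 (-3.18 ± 0.35) and Lgi2 (-2.66 ± 0.38). Of these, Adm and Cxcl1 rose in the type I knockout, by 2.24 and 1.42, while Espn, Atf3, Slc2a3 and Lgi2 were not called there. The adjusted p of these differences (limma, all genes) ran from 0.000345 for Serpinb11 to 0.0277 for Rptn. The Cxcl1 gene, a neutrophil chemokine, gave 6.45, 5.43 and 7.22 on the knockout arrays, and its rise was lost without wild-type arrays 1 (0.0887), 2 (0.101) or 3 (0.112) or knockout arrays 1 (0.114) or 3 (0.18). Groups of 3 arrays are too small for a search for single outlying arrays.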

How the results depend on the processing

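Over 20 alternatives the count of genes called higher ran from 965 to 1798 and the count called lower from 874 to 2823, against 1351 and 1776. Array weights gave 2823 lower and 785 genes that differed between the knockouts, against 323, and a block for the title number gave 525. Leaving out 1 of the 6 arrays at a time gave 1097 to 1220 higher, 1055 to 1475 lower and 187 to 280 that differed. The 2 lowest counts of falls came without knockout arrays 1 and 2 (1118 without the latter), and the difference between the knockouts fell to 205, 187 and 191 without wild-type array 2, knockout array 1 and knockout array 2. Leaving out array 3 of both groups, which was added after the data were seen, gave 965, 874 and 189, with fewer arrays in the fit. The fit to the 6 type I arrays alone gives no difference between the knockouts. Median scaling moved the median change of all genes from -0.12 to -0.15, and no filter on dim probes moved it to -0.02. Of 220 called genes that the naming rule took, 149 kept their call and their direction in all 20 alternatives, 71 lost it in at least 1 and 0 reversed, and of 14 not called 4 were called in at least 1. Of 118 counts of list members 58 stayed within 1.5 times under all, and those that did not were mostly counts of falls. The titles carry 1 number for arrays 1 and 2 of both groups and another for array 3 of both, while the replicate numbers 1 to 3 follow the order of deposit, so they pair no arrays: same-numbered deviations from the group means correlated at 0.18, 0.07 and 0.37, and 1 of 3 knockout arrays correlated best with its own number. Array 3, the 1 pair matched by its title number alone, had the highest of these. The fit with the replicate block called 1380 higher, 1841 lower and 322 different. The number of arrays limits the precision. In simulated data with the same spread 32% of 1.5-fold, 68% of 2-fold and 96% of 4-fold changes were recovered. The simulation changed 50 genes at each fold (1.5, 2, 4 and 8) among 10507, a far smaller share than the 29.8% called here. The Benjamini-Hochberg adjustment depends on that share, so these rates do not carry over to this comparison.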

Other observations

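Several gene groups moved little or in both directions. Of 22 genes of the unfolded protein and integrated stress response 4 rose (18.2%) and 2 fell (9.09%), against 12.9% and 16.9% over all genes. Sesn2, a stress-induced regulator of metabolism, rose by 0.85 ± 0.20 (adjusted p = 0.00902). The rises became 1 without knockout array 3 and 2 without wild-type array 2 or 3 or knockout array 1. The falls became 0 without wild-type array 2 or knockout array 1 and 1 without wild-type array 1 or knockout array 2 or 3. Of 16 mucins and glycoprotein enzymes 4 rose (2 without wild-type array 2) and 2 fell (1 without wild-type array 2 or knockout array 1 or 2), with the hyaluronidase Hyal1 at 1.69 ± 0.29 (0.00157) and the sialyltransferase St6galnac2 at -1.08 ± 0.22 (0.00449). Of 16 plasminogen activators, metalloproteases and inhibitors 0 rose and 5 fell (31.2%, against 16.9% over all genes), among them Timp4, at least 1.88-fold lower. These falls were 3 without wild-type array 2 or 3 or knockout array 1 or 3. Of 6 connexins and pannexins 2 rose and 0 fell, Gjb2 and Gja1 (0.61 ± 0.12, 0.00392).

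Of 7 endothelial markers that entered 1 fell (Egfl7, a call lost with the mean of its probes, 0.0792, and the count became 2 without knockout array 1). The 3 Egfl7 probes changed by -0.67 to 0.35, and 2 were called. Of 4 erythroid markers 2 fell (1 without wild-type array 1 or 2 or knockout array 1 or 3), and the haemoglobin gene Hba-a1 changed by -0.64 ± 0.15 (adjusted p = 0.00737). Among 3 Schwann cell markers the brightest probe of Mbp, the myelin basic protein, rose by 1.25 ± 0.12 (2.1e-05), a call lost with the mean of its probes (0.133). The 2 Mbp probes changed in opposite directions, by 1.25 and -0.45, and 1 was called. Pmp22 fell by 0.55 ± 0.16 (0.0197), a call also lost with the mean of its probes (0.179) and without wild-type array 1 (0.0535) or 2 (0.0605) or knockout array 3 (0.0744). The T cell list entered with Thy1 alone, which fell by 0.71 ± 0.16 (0.00811), and Cd3d and Cd3e were not detected on any of the 6 arrays. Of 2382 genes with several entered probes, 219 had all probes called higher, 137 all lower, 617 some called, 1406 none and 3 probes called in opposite directions (Capzb, Fgf22 and Pdlim5). The naming rule took 48 genes with several entered probes. In 34 of them all probes were called, and 3 had probes of opposite sign, called or not.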
